A study of Mus musculus with 2 samples.

Results

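The dystrophin-glycoprotein complex was examined in gastrocnemius, a large calf muscle, as 8 named genes out of the 34745 in the count table. These were Dmd and Utrn, which encode dystrophin and utrophin, the sarcoglycan genes Sgca, Sgcb and Sgcd, the dystroglycan gene Dag1, Sspn, which encodes sarcospan, and Dtna, which encodes alpha-dystrobrevin. The members were taken by gene name. All 8 were found and all 8 passed the filter on low counts, a mean of at least 1 CPM (counts scaled to library size). RNA was sequenced from C57BL/6 mice aged 8 weeks in 2 libraries, 1 labelled Cry2scko and 1 of genotype Cry2flox/flox, called Cry2flox here. Cry2 encodes the clock repressor cryptochrome 2. In a floxed allele, recombinase sites flank a part of the gene so that it can be cut out. The labels name neither the recombinase nor the cells in which it acts, do not spell out scko, and do not say whether a library holds 1 animal or a pool.

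The complex spans the membrane of the muscle fibre and ties the actin cytoskeleton inside to the basement membrane outside. Dystrophin binds actin through its N-terminal part and dystroglycan near its C-terminus. Dystroglycan binds laminin through sugar chains, the sarcoglycans and sarcospan form a subcomplex beside it, and dystrobrevin and the syntrophins attach to dystrophin from within. Loss of dystrophin causes Duchenne muscular dystrophy in humans and the dystrophy of the mdx mouse, and loss of a sarcoglycan causes a limb-girdle dystrophy. In mature muscle utrophin, the close relative of dystrophin, is concentrated at the neuromuscular junction.

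Each genotype is 1 library without replicates. The comparisons therefore describe this pair of libraries, and no p-value is given. Ratios are Cry2scko over Cry2flox after scaling with TMM factors, and their 95% intervals are exact counting intervals. Intervals cover counting error only, and without molecular identifiers reads are not independent molecules. Cry2 itself had 133 reads in Cry2scko and 676 reads in Cry2flox, a log2 ratio of -2.16 (-2.44 to -1.89). The total count was 16423884 reads in Cry2scko and 18909433 reads in Cry2flox. Calls required a change of 2-fold or more in either direction and an interval that did not hold a ratio of 1. Of 12832 genes compared, 4.88% passed this rule, 3.37% as higher and 1.51% as lower.

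Dmd and Dag1 were the lowest members of the complex in the Cry2scko library, at almost the same ratio, and the other 6 members had log2 ratios between -0.25 and 0.03. None of the 8 members passed the 2-fold rule, against 4.88% of all genes. Under the same rule with a threshold of 1.5-fold, 2 of the 8 members were lower, Dmd and Dag1, and 0 were higher, where 4.35% of all genes were lower and 6.56% higher. With 1 FPKM added to the deposited FPKM values, Dmd was at -0.53 and no longer reached 1.5-fold, while Dag1 was at -0.62 and did. The median log2 ratio of the 8 members was -0.09, and -0.17 without Sspn and Dtna, which share exon bases with another gene. These overlaps are small, 69 bases for Sspn with a gene at 0 reads and 90 bases for Dtna with a gene without a count here. Over all 12832 genes compared the median was -0.00 with quartiles of -0.17 and 0.18. In whole muscle, fewer cells of a type and less RNA per cell cannot be told apart.

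**Figure D1:**
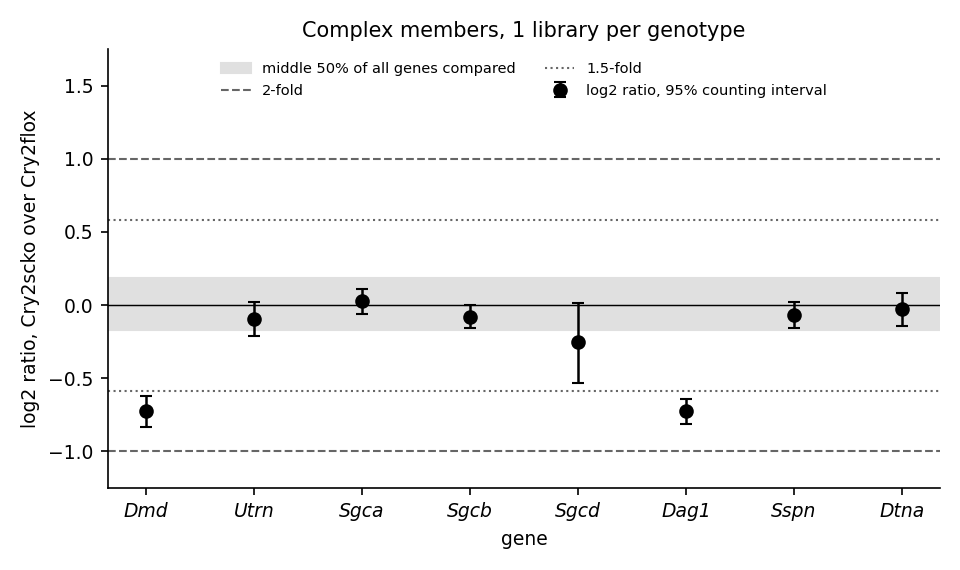
Log2 ratio of Cry2scko over Cry2flox for the 8 members (points) with 95% counting intervals (bars). The grey band is the middle 50% of the 12832 genes compared, and lines mark 1.5-fold and 2-fold. Dmd and Dag1 lie at -0.73, between the 1.5-fold and 2-fold lines, and the other 6 lie between -0.25 and 0.03.

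Dystrophin links cortical actin to the membrane. Dmd (ENSMUSG00000045103, GRCm38 chromosome X, 82948870 to 85206141, plus strand) had 1155 reads or 69.8 CPM (95% interval 65.9 to 74.0) in Cry2scko and 2170 reads or 116 CPM (111 to 121) in Cry2flox. The level in Cry2scko was thus below that in Cry2flox, and the intervals did not overlap. The log2 ratio was -0.73 (-0.83 to -0.62), a level 1.65-fold lower in Cry2scko. Of all genes compared, 3.30% had a ratio as low or lower. The count pools the 14 annotated transcripts of Dmd. The longest, Dmd-203, has 79 exons and 14.9 kb and starts at 82948903, while a coding transcript of 18 exons and 4.44 kb, Dmd-201, starts far downstream at 85048413. The gene count does not separate them.

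Dystroglycan is made as 1 precursor that is cut into an outer, laminin-binding part and a membrane-spanning part that holds dystrophin. Dag1 (ENSMUSG00000039952, minus strand of chromosome 9, 108204634 to 108263958) had 1657 reads or 100.2 CPM (95.4 to 105) in Cry2scko and 3115 reads or 166 CPM (160.1 to 172) in Cry2flox. Its log2 ratio was -0.73 (-0.81 to -0.64), 1.66-fold lower in Cry2scko, and 3.29% of all genes had a ratio as low or lower. In GENCODE M21, the annotation used here for overlaps, neither Dmd nor Dag1 shares exon bases with another gene. The annotation behind the counts is not given. The deposited values imply a length of 18.6 kb for Dag1, against 6.36 kb of merged exons in GENCODE M21. For Dmd they imply 28.9 kb against 23.8 kb. Overlaps in the annotation behind the counts could therefore not be checked.

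The stretches upstream of the RefSeq starts of Dmd and Dag1 are shown because these members had the lowest ratios, and that of Utrn is shown for comparison. Each is 250 bases long, written 5′ to 3′ on the strand of the gene, from RefSeq on GRCm38.p6, and capitals mark a CArG box, CACGTG, or GGGCGG on either strand (CCGCCC). The entries are Dmd start 1 (chrX:82948620-82948869, plus strand), Dmd start 2 (chrX:85048045-85048294, plus strand), Dag1 (chr9:108263959-108264208, minus strand) and Utrn (chr10:12861736-12861985, minus strand). The Utrn window adjoins the start of Utrn-201, the longest annotated transcript, at 12861735, and lies within the gene, since Utrn-205 starts farther upstream at 12869365. The stretch before that outer start was not analysed here.
Dmd start 1: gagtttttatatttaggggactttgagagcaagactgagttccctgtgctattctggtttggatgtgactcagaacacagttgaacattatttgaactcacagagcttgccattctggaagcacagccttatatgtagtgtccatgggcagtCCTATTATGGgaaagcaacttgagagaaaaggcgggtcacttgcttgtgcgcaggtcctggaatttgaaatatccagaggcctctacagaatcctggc
Dmd start 2: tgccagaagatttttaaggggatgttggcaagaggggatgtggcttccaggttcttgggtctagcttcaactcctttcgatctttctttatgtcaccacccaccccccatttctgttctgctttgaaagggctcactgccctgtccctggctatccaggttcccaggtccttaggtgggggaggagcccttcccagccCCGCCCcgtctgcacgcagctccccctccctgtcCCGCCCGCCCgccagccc
Dag1: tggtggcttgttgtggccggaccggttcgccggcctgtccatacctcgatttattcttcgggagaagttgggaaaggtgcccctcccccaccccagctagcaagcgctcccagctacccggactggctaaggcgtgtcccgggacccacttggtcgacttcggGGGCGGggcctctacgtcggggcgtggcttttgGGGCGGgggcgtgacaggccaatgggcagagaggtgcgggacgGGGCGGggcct
Utrn: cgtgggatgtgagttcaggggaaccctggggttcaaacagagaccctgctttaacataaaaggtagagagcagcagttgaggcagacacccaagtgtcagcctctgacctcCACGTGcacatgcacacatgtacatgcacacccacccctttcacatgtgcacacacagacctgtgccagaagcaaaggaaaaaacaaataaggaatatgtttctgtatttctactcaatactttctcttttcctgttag

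Promoter entries of 7 of the 8 members were used, 10 entries in all. Dtna is not among them, because entries on chromosome 18, where it lies, were left out. In these windows 5 motifs were sought on both strands, counting overlapping matches. The CArG box, the binding motif of serum response factor, was found only in Dmd start 1, with its first base 98 bases upstream of the start, and it occurs in 1.47% of 32851 promoter windows of the same length. GGGCGG, the core of the GC box, was found 3 times in each of the 2 overlapping Dag1 entries, 3 times in Dmd start 2 and once each in Sgcb and Sgcd (32.7% of all windows hold it). CACGTG, the E-box letters bound by CLOCK and BMAL1, was found once in Utrn and once in Sgcd and in no entry of Dmd or Dag1 (6.02% of all windows). The Utrn window lies within the gene, so neither matches nor their absence there describe the stretch before the outer Utrn start. CANNTG, which includes CACGTG, was found 2 times in Dmd start 1, once in each Dag1 entry, 7 times in Utrn and 0 to 2 times in the other entries (66.2% of all windows). TTCCGG, the letters of the N-box of synaptic genes, was found in none of the 10 entries (12.0% of all windows). The Sgcd window (chr11:47379326-47379575, minus strand) also lies within its gene and runs over the annotated start of Sgcd-201 at 47379522. The Sgcb window (chr5:73647738-73647987, minus strand) runs over the annotated start of Sgcb-201 at 73647790. The Dag1 entry not printed (chr9:108263816-108264065) runs over the start of Dag1-204 at 108263958. Of the Sspn windows, chr6:145931623-145931872 runs over the start of Sspn-203 at 145931641, and chr6:145933872-145934121 lies within the gene. Dmd start 2 likewise lies within its gene. A match is a description of these letters and not a binding site.

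Utrn, the gene of utrophin, lay near equal, unlike Dmd, and the ratio of the pair differed between the libraries. Utrn (ENSMUSG00000019820, minus strand of chromosome 10, 12382188 to 12869365) had 1080 reads or 65.3 CPM (61.5 to 69.3) in Cry2scko and 1309 reads or 69.7 CPM (66.0 to 73.6) in Cry2flox. The intervals overlapped, and the log2 ratio was -0.09 (-0.21 to 0.02). Reads of Utrn per read of Dmd were 0.935 in Cry2scko and 0.603 in Cry2flox. The ratio of these ratios was 1.55 (1.39 to 1.73), which does not depend on how the libraries are scaled.

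The sarcoglycans are single-pass membrane proteins that form a tight unit in muscle fibres. Sgca (ENSMUSG00000001508, minus strand of chromosome 11, 94962791 to 94976327) had 2003 reads or 121 CPM in Cry2scko and 2235 reads or 119 CPM in Cry2flox, a log2 ratio of 0.03 (-0.06 to 0.11). Sgcb (ENSMUSG00000029156, minus strand of chromosome 5, 73632749 to 73647790) had 2446 reads or 148 CPM in Cry2scko and 2932 reads or 156 CPM in Cry2flox, a log2 ratio of -0.08 (-0.16 to -0.00). These well-counted genes differed by at most 1.06-fold. Sgcd (ENSMUSG00000020354, minus strand of chromosome 11, 46896253 to 47988969) had the fewest reads of the 8, 194 or 11.7 CPM (10.1 to 13.5) in Cry2scko and 263 or 14.01 CPM (12.4 to 15.8) in Cry2flox. Its log2 ratio was -0.25 (-0.53 to 0.02), so a difference in Sgcd was not detectable at this depth.

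The read ratios of Sgcb and of Sgcd to Sgca had intervals that held 1, and Sgcd was not compared with Sgcb. Relative to Sgca, the ratio in Cry2scko over that in Cry2flox was 0.931 (0.858 to 1.01) for Sgcb and 0.823 (0.673 to 1.005) for Sgcd. Sgce, the relative of Sgca that is known from tissues other than skeletal muscle as well, had 107 reads in Cry2scko and 125 in Cry2flox, and its ratio to Sgca was 0.955 (0.726 to 1.26) times that in Cry2flox.

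Sarcospan and alpha-dystrobrevin also lay near equal. Sspn, whose protein crosses the membrane beside the sarcoglycans (ENSMUSG00000030255, chromosome 6, 145931641 to 145965223, plus strand), had 1943 reads or 117 CPM in Cry2scko and 2312 reads or 123 CPM in Cry2flox, a log2 ratio of -0.07 (-0.16 to 0.02). Sspn shares 69 exon bases with Sspnos on the opposite strand, which had 0 reads in both libraries. Dtna (ENSMUSG00000024302, chromosome 18, 23415135 to 23659715, plus strand) had 1158 reads or 70.0 CPM (66.0 to 74.2) in Cry2scko and 1341 reads or 71.4 CPM (67.6 to 75.3) in Cry2flox, a log2 ratio of -0.03 (-0.14 to 0.09). Dtnb, which encodes the related beta-dystrobrevin, had 27 reads in Cry2scko and 48 in Cry2flox, and its ratio to Dtna was 0.651 (0.388 to 1.07) times that in Cry2flox.

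Across the complex, the equal ratios of Dmd and Dag1 meant that their proportion to each other was the same in both libraries. Reads of Dag1 per read of Dmd were 1.435 in Cry2scko and 1.435 in Cry2flox, a ratio of 0.999 (0.910 to 1.10). Sspn per read of Dmd was 1.68 in Cry2scko and 1.07 in Cry2flox, a ratio of 1.58 (1.44 to 1.74). Of the 7 pairs compared, the intervals of 2 excluded 1, and both have Dmd as denominator. Dag1, whose log2 ratio was nearly that of Dmd, was not used as a denominator, so this tally does not set Dmd apart. Dmd made up 9.93% (9.39 to 10.5) of the 11636 reads of the 8 members in Cry2scko and 13.8% (13.3 to 14.4) of their 15677 reads in Cry2flox. Dag1 made up 14.2% (13.6 to 14.9) in Cry2scko and 19.9% (19.2 to 20.5) in Cry2flox, with exact Clopper-Pearson intervals.

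**Figure D2:**
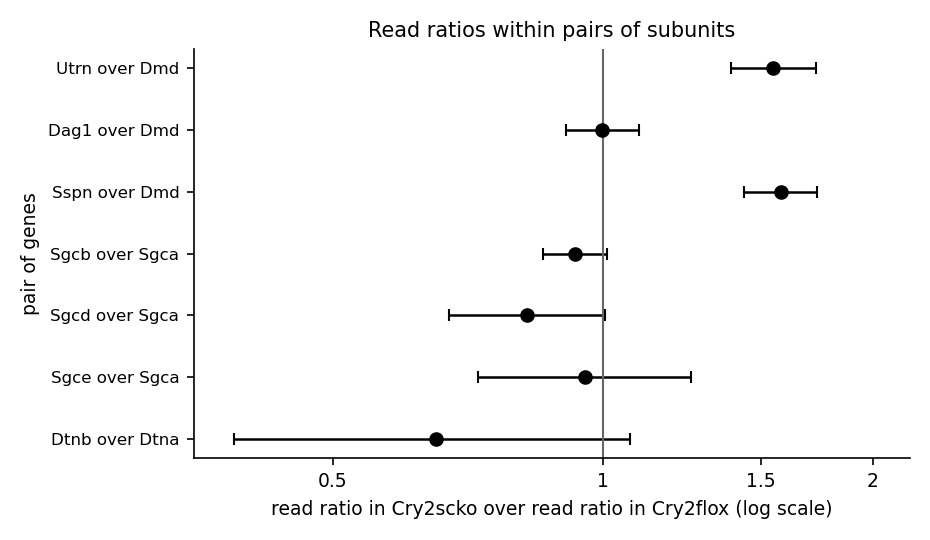
Ratio of reads between 2 genes in Cry2scko divided by the same ratio in Cry2flox (log axis), with exact conditional 95% intervals that cover counting error only. Utrn over Dmd (1.55) and Sspn over Dmd (1.58) lie above 1, Dag1 over Dmd lies at 0.999, and the other 4 intervals hold 1.

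Levels between genes were compared per length. On the scale of the deposited FPKM, Sgca was the most abundant member, at 46.1 FPKM (44.1 to 48.2) in Cry2scko and 44.7 (42.9 to 46.6) in Cry2flox. Sgcb followed at 35.1 FPKM in Cry2scko and 36.5 in Cry2flox. Sspn was at 23.7 FPKM in Cry2scko and 24.5 in Cry2flox, and Dtna at 10.7 FPKM in Cry2scko and 10.8 in Cry2flox. Below these, Dag1 was at 5.42 FPKM (5.16 to 5.69) in Cry2scko and 8.85 (8.54 to 9.16) in Cry2flox, and Utrn at 5.31 (4.999 to 5.64) in Cry2scko and 5.59 (5.29 to 5.90) in Cry2flox. Dag1 and Utrn thus had overlapping intervals in Cry2scko and separate ones in Cry2flox. Dmd was at 2.44 FPKM (2.30 to 2.58) in Cry2scko and 3.97 (3.81 to 4.15) in Cry2flox, and Sgcd was the least abundant, at 1.39 FPKM (1.198 to 1.60) in Cry2scko and 1.63 (1.44 to 1.84) in Cry2flox. The order of the 8 was the same in both libraries on this scale.

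The order of Dag1 and Dmd depended on the gene length used, a comparison added after the data were seen. The FPKM values imply a length of 18.6 kb for Dag1 and 28.9 kb for Dmd, against 5.66 kb and 14.9 kb for their longest annotated transcripts, while for Utrn both are 12.4 kb. Per kilobase of the longest transcript, Dag1 was at 17.7 CPM (16.9 to 18.6) in Cry2scko and 29.3 (28.3 to 30.3) in Cry2flox, which placed it at rank 4 in Cry2scko, below Sspn at 26.0 (24.9 to 27.2). In Cry2flox it was at rank 3, with an interval that overlapped that of Sspn at 27.3 (26.2 to 28.4). Dmd, at 4.68 (4.42 to 4.96) in Cry2scko and 7.75 (7.43 to 8.08) in Cry2flox, lay below Utrn at 5.27 (4.96 to 5.60) in Cry2scko and above Utrn at 5.63 (5.33 to 5.94) in Cry2flox. Sgca stayed the highest and Sgcd the lowest on both scales in both libraries.

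**Figure D3:**
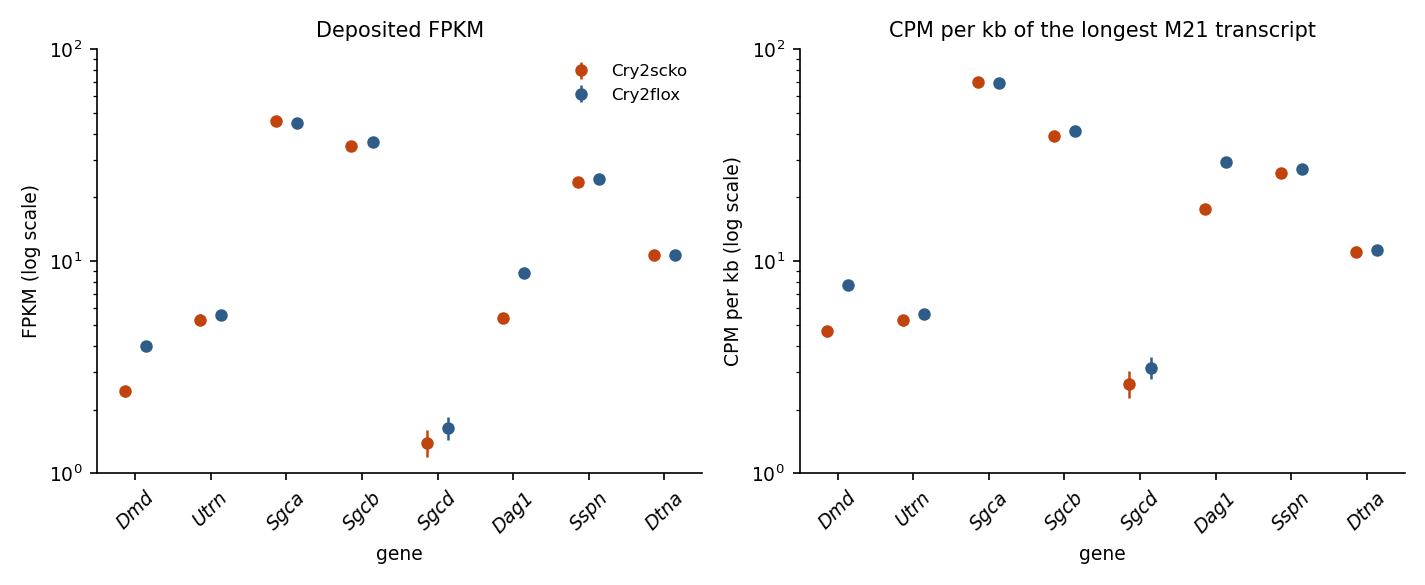
Level of each member in the Cry2scko (left point of each pair) and Cry2flox (right point) libraries on log axes, as deposited FPKM (left panel) and as CPM per kilobase of the longest GENCODE M21 transcript (right panel), with 95% counting intervals. Dmd and Dag1 are lower in Cry2scko on both scales, and Dag1 lies higher among the members on the right.

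Among the other subunits and relatives of the complex, Drp2 had the lowest ratio. Of 12 listed genes, 8 passed the filter, 0 of 8 passed the 2-fold rule, and their median log2 ratio was -0.10. Nos1, the nitric oxide synthase that docks on the complex through syntrophin, had 435 reads in Cry2scko and 631 in Cry2flox at -0.35 (-0.53 to -0.17). Drp2, a dystrophin-related protein known from Schwann cells, had 156 reads in Cry2scko and 333 in Cry2flox at -0.91 (-1.19 to -0.63), and was the 1 gene of the 8 past 1.5-fold, where 4.35% of all genes were lower. The 8 Schwann cell markers had 0 past either rule and a median of -0.01, and Prx, which encodes the partner of Drp2 in the myelin sheath, was at -0.03 (-0.27 to 0.20). Sgcz, Sntg1 and Dytn had 0 reads in both libraries, which allows up to 0.181 CPM in Cry2scko and 0.160 CPM in Cry2flox, taking 3 reads as the limit.

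Enzymes that build the laminin-binding sugar chains of dystroglycan were mostly near equal. Of 18 listed, 17 passed the filter, 0 passed the 2-fold rule, and the median log2 ratio was -0.03, or -0.16 without genes that share exon bases. Among the more abundant, B3galnt2 was at -0.12 (-0.20 to -0.03) and B4gat1 at -0.02 (-0.23 to 0.20). B4gat1 shares 1967 bases of its 2.31 kb of merged exons with other annotation on the same strand. B3galnt2 shares 583 exon bases on the opposite strand. Their counts may therefore not be those of these genes alone. At 1.5-fold, 2 of 17 were higher, against 6.56% of all genes, and 0 were lower. These were Dpm1 and Dpm2, subunits of the enzyme that makes the mannose donor dolichol phosphate mannose. Dpm1 had 323 reads in Cry2scko and 185 in Cry2flox at 0.99 (0.72 to 1.26), and Dpm2, named after its value was seen, had 113 reads in Cry2scko and 76 in Cry2flox at 0.75 (0.32 to 1.19). Dpm1 shares 895 exon bases on the same strand with Gm20716, which had 356 reads in Cry2scko and 509 in Cry2flox, so reads may be assigned to either gene. The remaining subunit gene, Dpm3, had the lowest ratio of the list, -0.31 (-0.87 to 0.24).

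The basement membrane list holds genes of laminin chains, laminin being bound by dystroglycan, and of other matrix proteins. All 14 listed genes had a ratio below 1, where 50.04% of all genes with a mean of 0.5 CPM or more had one, and their median log2 ratio was -0.31. The counting intervals of 10 lay below a ratio of 1 and those of 4 held 1. None of the 14 passed the 2-fold rule, against 4.88% of all genes, and 1 was lower at 1.5-fold, against 4.35%, a share too near that of all genes to set the list apart. Fibroblast and tendon markers were lower beside them, with 8 of 8 below a ratio of 1, a median of -0.55 and sums of 852 CPM in Cry2scko and 1296 CPM in Cry2flox, and their part in the basement membrane values was not tested. The gene lower at 1.5-fold was Bgn, a proteoglycan that binds dystroglycan and sarcoglycans, with 803 reads in Cry2scko and 1421 in Cry2flox at -0.64 (-0.77 to -0.51). The collagen IV genes Col4a1 and Col4a2 were at -0.35 (-0.39 to -0.30) and -0.26 (-0.31 to -0.20), and Nid1, which joins laminin and collagen IV, at -0.25 (-0.33 to -0.16). Lama5, a laminin chain, was at -0.01 (-0.15 to 0.13).

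Genes of the costamere, the lattice that couples sarcomeres to the membrane, and of membrane repair had a median of -0.07 over 21 measured genes. Of the 20 past the filter, 0 passed the 2-fold rule and 1 was lower at 1.5-fold, close to the 4.35% of all genes. This was Actg1, the cytoplasmic gamma-actin to which dystrophin binds, with 1367 reads in Cry2scko and 2524 in Cry2flox at -0.70 (-0.80 to -0.61). The intermediate filament genes Des and Synm were at 0.06 (0.04 to 0.08) and -0.08 (-0.11 to -0.05), the caveolar gene Cavin4 at 0.02 (-0.05 to 0.10) and the integrin chain Itgb1 at 0.17 (0.11 to 0.24). Partners of syntrophin, dystrobrevin and dystrophin had a median of 0.00 over 10 measured genes, with 0 of 9 past either rule. The water channel Aqp4 was at -0.12 (-0.24 to -0.01), the sodium channel Scn4a at -0.00 (-0.05 to 0.05) and the kinase Mapk12 at 0.00 (-0.08 to 0.09). Of the 9 genes past the filter the lowest was Pgm5, which encodes a dystrophin-binding protein of adhesion sites, at -0.48 (-0.72 to -0.25), and the highest Dtnbp1, which encodes a dystrobrevin-binding protein, at 0.18 (-0.02 to 0.38).

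**Figure D4:**
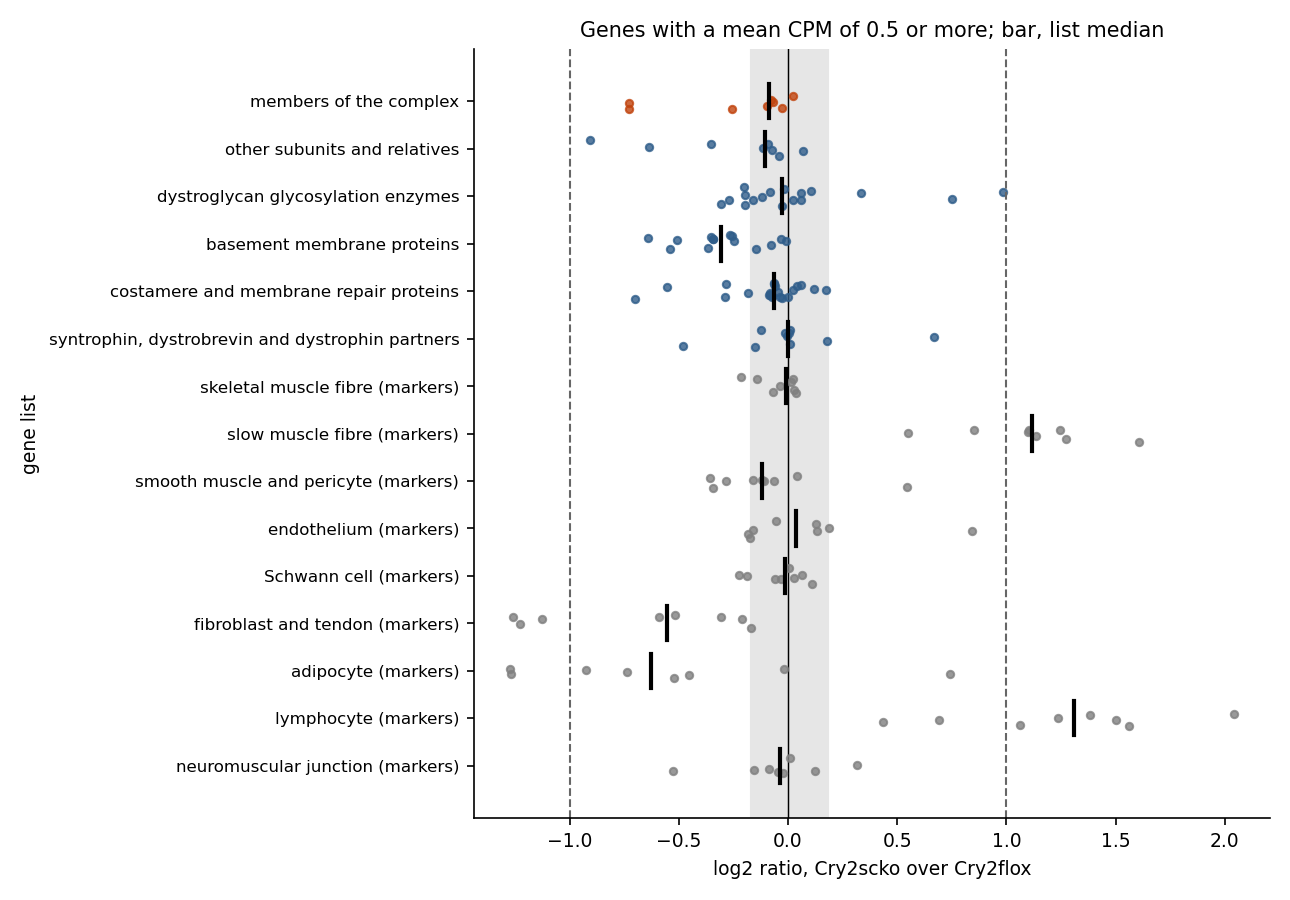
Log2 ratio of Cry2scko over Cry2flox for each gene of 6 lists of the complex and its surroundings (coloured points) and 9 lists of cell type markers (grey points), for genes at 0.5 CPM or above on average, with black bars at list medians. The grey band is the middle 50% of all genes compared and dashed lines mark 2-fold. Members spread from -0.73 to 0.03, slow fibre and lymphocyte markers lie to the right, and fibroblast and tendon markers to the left. Of the adipocyte markers 7 lie to the left of 0, Fabp4 close to it, and Lep lies to the right at 0.74.

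Cell type markers were read beside the members. The 8 markers of skeletal muscle fibres had a median log2 ratio of -0.01 and 0 past the 2-fold rule, and summed to 120379 CPM in Cry2scko and 126537 CPM in Cry2flox. Markers of slow fibres were higher, 6 of 8 past the rule, with sums of 2963 CPM in Cry2scko and 1397 in Cry2flox. Of the fibroblast and tendon markers, 3 of 8 were lower under the rule. Adipocyte markers had 2 of 7 lower, with sums of 299 CPM in Cry2scko and 321 in Cry2flox. Fabp4 made up 274 CPM of this sum in Cry2scko and 278 in Cry2flox, and the other 7 genes summed to 24.8 CPM in Cry2scko and 43.6 in Cry2flox. Lymphocyte markers had 6 of 8 higher, with sums of 96.8 CPM in Cry2scko and 38.1 in Cry2flox. Smooth muscle and pericyte, endothelial and Schwann cell markers had 0 past the 2-fold rule, and medians of -0.12, 0.04 and -0.01. No marker in these lists was at 0 reads in either library. The part of these cell types in the lower Dmd and Dag1 counts was not tested. In a split by length added after the data were seen, among the 1273 genes with more than 10 kb of merged exons, Dmd included, the median log2 ratio was -0.05, 58.6% had a ratio below 1 and 5.03% were lower at 1.5-fold. Of the 11525 shorter genes, Dag1 included, 49.6% had a ratio below 1 and 4.27% were lower at 1.5-fold.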

How the data were processed

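The deposited files hold raw read counts by Ensembl gene, in 1 table of both libraries, and FPKM values, in a file for each library, per the file headers. The submitters' processing notes name GRCm38 as the build and CASAVA, StringTie 1.3.0 and HISAT2 2.0.4 as tools. The read counter, annotation release and strand setting are not given in the sources used here. Gene lengths implied by counts and FPKM matched between the libraries to 0.1 percent in all 16284 genes read in both. Names, positions, transcripts and exon overlaps came from GENCODE M21 (GRCm38), and 34344 of 34745 identifiers had a name.

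Counts were scaled with TMM factors of 1.007 for Cry2scko and 0.993 for Cry2flox (edgeR 4.0.16, R 4.3.3). Each count had 0.5 reads added before the log2 ratio was formed. Its interval is the Clopper-Pearson interval of the share of reads in Cry2scko, and pairs of genes were compared by the conditional odds ratio (scipy 1.17.1, Python 3.11.15). Calls were made at a mean of at least 1 CPM, and list medians included genes from a mean of 0.5 CPM. The procedure was run on simulated counts that hold counting error only, which cannot show how libraries of the same genotype vary. Alternatives were 4 other scalings, among them DESeq2 1.42.0 size factors, deposited FPKM with 0.1 or 1 FPKM added, 5 reads added, other filters, a 1.5-fold threshold, and leaving out genes with shared exon bases. Named genes of each list were those past the 2-fold rule, the highest and lowest ratio and the 3 most abundant by FPKM, and Sgce, Dtnb, Prx and Dpm2 were named besides. Some genes of the lists are counted in them but not reported here by name, and 1 pair was left out. The members and lists were chosen with earlier results of these data known. Likeness of pattern was not computed, because 2 libraries give 1 ratio per gene.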

Additional observations from a re-analysis of the deposited data

How the results depend on the processing

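Dmd and Dag1 kept a ratio below 1 under all 7 alternatives of scaling, unit and added reads, at -0.73 to -0.53 for Dmd and -0.74 to -0.62 for Dag1. The values nearest 0, -0.53 and -0.62, came with 1 FPKM added, which by construction shrinks ratios of genes at few FPKM. Both lay outside the counting intervals, and Dmd then fell short of 1.5-fold. The other 54 of 56 values of the 8 members stayed within their counting intervals, as did all 14 alternative read ratios of pairs. Over the alternatives Dtna ran from -0.04 to 0.00 and Sgca from 0.02 to 0.05. Without genes that share exon bases the median of the members was -0.17 in place of -0.09, and that of the glycosylation enzymes -0.16 in place of -0.03. The scalings moved the median of all genes by at most 0.03. No member passed the 2-fold rule under any alternative, and a threshold of 1.5 called 2 of 8 lower.

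Counts of all genes past the rule were 432 higher and 194 lower. They became 78 and 28 with 1 FPKM added, 789 and 396 with no filter, 175 and 76 from a mean CPM of 5, 842 and 558 at 1.5-fold, and 270 and 121 without genes that share exon bases, each by the construction of the alternative. With 0.1 FPKM added 116 were lower. No paired analysis was possible because each genotype has 1 library. Depth limited Sgcd most among the members, with 194 reads in Cry2scko and 263 in Cry2flox.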

Other observations

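Genes of the neuromuscular junction, the site where utrophin is concentrated in mature muscle, had ratios on both sides of 1. Of 8 listed genes 0 passed the 2-fold rule or the 1.5-fold rule, and the median log2 ratio was -0.04. The acetylcholine receptor subunit genes Chrne, Chrna1 and Chrnb1 were at -0.05 (-0.28 to 0.19), 0.01 (-0.22 to 0.24) and 0.12 (-0.04 to 0.29). The list summed to 127 CPM in Cry2scko and 128 CPM in Cry2flox. Dok7, the adaptor that activates the receptor kinase MuSK, was the lowest, with 135 reads in Cry2scko and 221 in Cry2flox at -0.53 (-0.85 to -0.21). Lrp4, which encodes the agrin receptor, was the highest, with 226 reads in Cry2scko and 206 in Cry2flox at 0.32 (0.04 to 0.60).

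The keratin genes listed with the costamere were hardly read. Krt8 had 5 reads in Cry2scko and 0 in Cry2flox, and Krt18 had 2 reads in Cry2scko and 8 in Cry2flox. Krt19 had 10 reads in Cry2scko and 17 in Cry2flox. Each lay below the filter of a mean of 1 CPM. A difference in Krt18 or Krt19 was not detectable at this depth, and Krt8 had too few reads to be called.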
